A study of Mus musculus with 14 samples.

Results

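Expression of 37 genes of glucose use was followed in whole left ventricular (LV) myocardium of mice after aortic banding (AB) or Sham operation. The genes encode the glucose transporters, the enzymes of glycolysis, the handling of lactate and pyruvate, and the making and breaking of glycogen. Each was read from 1 probe set, the one with the highest mean over the 14 arrays among those listed with that gene symbol alone, which gave values for 33 of the 37 genes among 19937 genes measured. Gpi1, Pfkfb1 and Eno1 had no probe set listed under their symbol, and Gapdh had 11 probe sets that each carried 4 to 8 symbols, so these 4 genes were left without a value. All values are log2 values of Affymetrix mouse ST 1.0 arrays, a difference of 1 being a doubling, and the log2 value of 1 gene cannot be set against that of another because probes differ in brightness.

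Male wild type (WT) C57BL/6 mice and male mice with a systemic knockout of the chemokine receptor gene Cxcr5 (CXCR5-/-, C57BL/6 background) had AB of the ascending aorta, which loads the LV with pressure, or Sham surgery without the constriction. The LV was taken 3 weeks later and hybridised to 1 array per mouse, from 3 WT Sham, 4 WT AB, 3 CXCR5-/- Sham and 4 CXCR5-/- AB mice. The knockout line lacks the receptor's coding sequence, which was exchanged for a neomycin selection marker, and had 8 generations of crossing to C57BL/6 behind it. The WT mice were purchased C57BL/6 mice, so the genotypes were not compared between littermates as far as the sources used here tell, and ages were not given there. Right ventricles and atria had been removed, and AB mice were included by the flow velocity across the band.

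The adult heart draws most of its energy from fatty acids and takes up glucose mainly through the insulin-regulated transporter GLUT4, with GLUT1 as the transporter of fetal and stressed hearts. Inside the cell, hexokinase traps glucose, phosphofructokinase commits it to glycolysis, and pyruvate is either burned through pyruvate dehydrogenase or exported as lactate. Glycogen is a local store, built by glycogen synthase and broken down by phosphorylase, which phosphorylase kinase switches on. Many of these steps have a muscle isoform and an isoform of other or fetal tissues, and that contrast orders the results.

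The promoters of the genes with the largest called increase (Pfkp) and the pair with the largest called decreases (Fbp2 and Phkg1) after AB are given here from RefSeq, build GRCm38.p6, from 250 bases before to 50 bases after the start of transcription, read 5′ to 3′ on the strand of the gene. The Pfkp promoter lies at chr13:6648722-6649021, that of Fbp2 at chr13:62858351-62858650 and that of Phkg1 at chr5:129879039-129879338, all 3 on the minus strand. Capitals mark the letters CACGTG, the E-box bound by factors such as MYC and USF.
Pfkp: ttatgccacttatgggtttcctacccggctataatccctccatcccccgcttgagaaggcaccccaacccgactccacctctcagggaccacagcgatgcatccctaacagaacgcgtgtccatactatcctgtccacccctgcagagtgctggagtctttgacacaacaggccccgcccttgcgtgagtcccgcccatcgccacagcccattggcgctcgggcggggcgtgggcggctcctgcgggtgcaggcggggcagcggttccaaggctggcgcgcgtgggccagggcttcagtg
Fbp2: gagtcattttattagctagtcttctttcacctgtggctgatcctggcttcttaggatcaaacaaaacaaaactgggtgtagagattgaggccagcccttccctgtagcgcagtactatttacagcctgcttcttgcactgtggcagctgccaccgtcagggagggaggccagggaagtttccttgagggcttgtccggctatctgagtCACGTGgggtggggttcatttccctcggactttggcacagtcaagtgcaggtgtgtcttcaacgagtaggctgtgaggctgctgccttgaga
Phkg1: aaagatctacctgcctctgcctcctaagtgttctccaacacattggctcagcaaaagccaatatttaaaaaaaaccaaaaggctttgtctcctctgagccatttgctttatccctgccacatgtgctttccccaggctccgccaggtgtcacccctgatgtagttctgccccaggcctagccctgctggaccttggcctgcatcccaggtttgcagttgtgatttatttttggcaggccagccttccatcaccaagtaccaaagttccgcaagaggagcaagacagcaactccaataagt
Promoters of the same length were searched on both strands for 3 strings of letters. ACGTG, a form of the core of the hypoxia response element, was in 23 of the 54 promoters listed for 36 of the 37 genes, against 19.6% of all 32851 promoters. It was in the promoters of 20 genes, among them Slc2a1, Hk2, Pfkm, Pgk1, Ldha, Slc16a3, Ppp1r3c and Pygm. The other form of that core, GCGTG, was not searched, so these counts cover only part of it. The E-box, which contains ACGTG, was in 8 of the 54 against 7.15% of all promoters (Fbp2, Gyg, Ldha, Pdk2, Pfkfb2, Pfkm, Ppp1r3c and Slc16a1). The extended ERR element TNAAGGTCA, with N for any base, was in 1 of the 54, that of Tpi1, against 1.28%. The windows of Pfkp and Phkg1 printed here held none of the 3 strings, and Slc2a4 had no entry. The Pfkp window does hold GCGTG, so it does not lack the hypoxia core. Genes that rose and genes that fell after AB both had ACGTG (Slc16a3 and Ppp1r3c, Hk2 and Pygm), and a match of letters is a description and not a bound site.

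The labelled tissue was checked against marker genes. The mean log2 value of 8 ventricular myocyte markers was 12.36 on every WT Sham and 12.14 to 12.21 on the WT AB arrays, and 12.345 to 12.356 against 12.07 to 12.205 in CXCR5-/- hearts, without overlap, and 1 and 3 of the 8 fell. The part of this lower level in the lower members was not tested. By contrast, skeletal muscle markers stayed at 4.73 to 5.14 with none of 8 called. The mean of 8 fibroblast markers was 8.29 to 8.47 after Sham and 9.28 to 9.845 after AB in WT, and 8.25 to 8.58 and 9.56 to 9.82 in CXCR5-/- hearts, with 5 and 8 of the 8 higher after AB. Macrophage markers rose for 2 of 5 in WT and 4 of 5 in CXCR5-/- hearts. Called higher besides these were 1 of 5 endothelial markers (Emcn) and 1 of 5 atrial markers (Nppa) in each genotype and 1 of 4 smooth muscle markers (Tagln) in CXCR5-/- hearts, and no lymphocyte, red blood cell or adipocyte marker was called. The atrial light chain gene Myl7 stood at 9.09 on WT Sham replicate 1 and at 9.68 and 8.82 on CXCR5-/- Sham replicates 1 and 2, against 5.65 to 7.49 on the other 11 arrays, so results are also given without these 3 Sham arrays. Another atrial marker, Bmp10, stood at 6.78 on CXCR5-/- AB replicate 4 against 3.02 to 3.32 on all other arrays, and without that array 15 members were called in CXCR5-/- hearts. Over all genes, 1573 were then called higher and 1098 lower there, against 1650 and 1168 with all arrays. The probe set of Cxcr5 read 3.03 to 3.30 on WT arrays and 3.85 to 4.47 on arrays labelled CXCR5-/-. Its position relative to the deleted coding region was not given, so it is no check of the labels, and CXCR5-/- below means the arrays labelled so.

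With AB, 15 of the 33 genes were called in WT hearts and 17 in CXCR5-/- hearts (limma, adjusted p under 0.05), most of them lower. In WT hearts 4 of them rose and 11 fell, against 5.1% of all genes called higher and 4.22% called lower. In CXCR5-/- hearts 4 rose and 13 fell, against 8.28% and 5.86% of all genes. The probe sets of the members were brighter than most, with a median at percentile 96.1 of all genes. With the dimmest 30% of genes left out, 1062 of 13956 genes were called higher and 907 lower in WT. In CXCR5-/- hearts these counts were 1694 and 1246. The median log2 difference over the 33 genes was -0.25 in WT and -0.32 in CXCR5-/- hearts, where the median over all genes was 0.01 and -0.01. Arrays of AB and Sham did not overlap for 5 genes that were higher and 11 that were lower in WT, against 9.39% and 7.74% of all genes, and for 6 and 15 in CXCR5-/- hearts, against 13.7% and 11.7%. Pfkp, Slc16a3 and Ppp1r3c were called higher in both genotypes, 3 of 4 of each list. Slc2a4, Hk2, Pfkm, Pfkl, Eno3, Fbp2, Gys1, Pygm and Phkg1 were called lower in both, 9 of the 11 of WT and 9 of the 13 of CXCR5-/- hearts. These are whole-ventricle samples, so fewer cells of a type and less RNA per cell cannot be told apart.

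**Figure D1:**
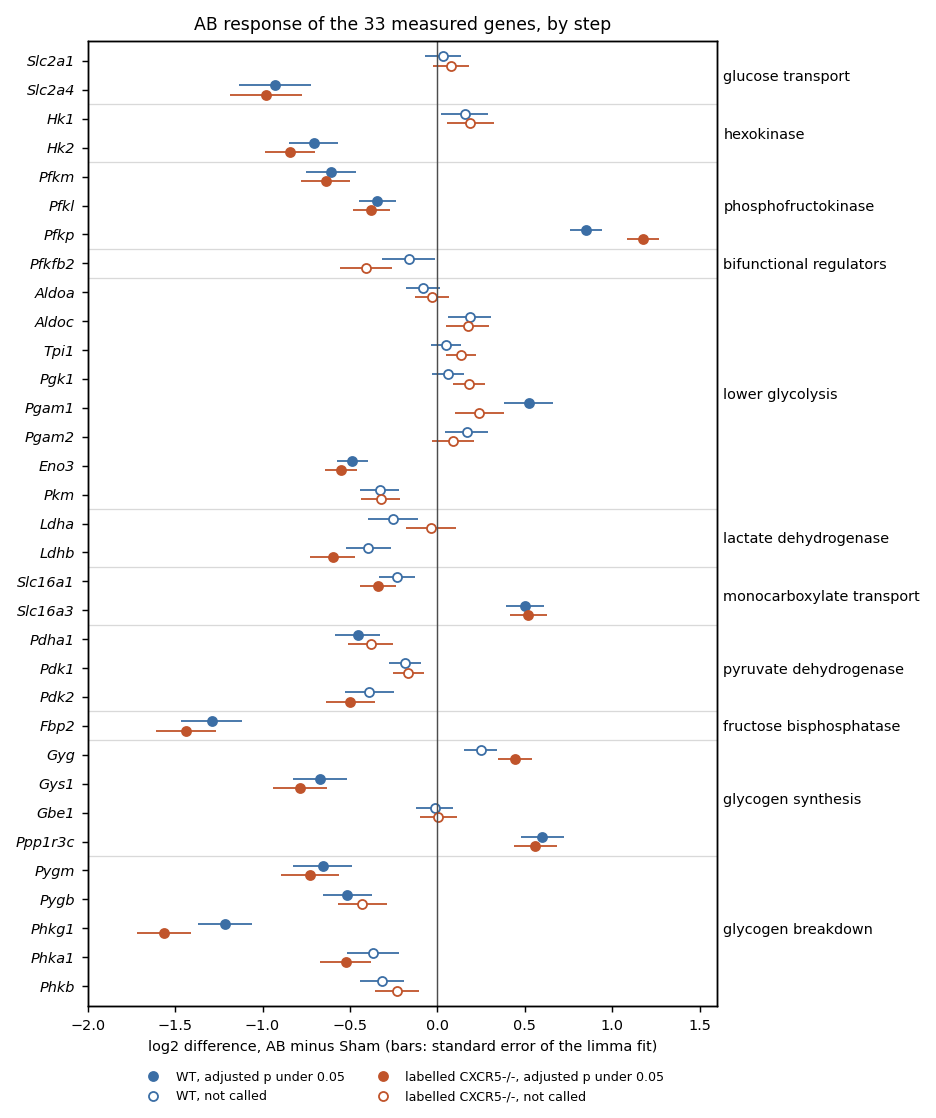
Log2 difference between AB and Sham for each of the 33 measured genes, ordered by step, in WT (blue) and in hearts labelled CXCR5-/- (orange). Points are group differences and bars their standard errors from limma, and filled points passed an adjusted p of 0.05. Fbp2 and Phkg1 lie furthest to the left and Pfkp furthest to the right.

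Glucose entry was split between the 2 transporters. Slc2a4, the gene of GLUT4, read 9.90, 10.37 and 10.40 on the WT Sham arrays and 8.63, 9.31, 9.59 and 9.64 on the WT AB arrays. On the CXCR5-/- arrays it read 10.02, 10.31 and 10.37 after Sham and 9.20, 8.92, 9.36 and 9.55 after AB. Every AB array lay below every Sham array of its genotype. Slc2a4 fell by 0.93 on the log2 scale in WT (SE 0.21, 1.91-fold lower, adjusted p = 0.00748) and by 0.98 in CXCR5-/- mice (SE 0.21, 1.97-fold lower, adjusted p = 0.00331). Slc2a1, the gene of GLUT1, ranged from 7.62 to 7.88 and from 7.69 to 7.99 in the WT groups and from 7.94 to 7.98 and from 7.88 to 8.22 in the CXCR5-/- groups, with overlapping arrays in both. Its log2 difference was 0.03 (SE 0.10) in WT and 0.08 (SE 0.10) in CXCR5-/- hearts and was not called.

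Hexokinase showed the same contrast between its isoforms. Hk2, the insulin-regulated isoform of muscle, read 9.53, 9.80 and 10.02 in WT Sham and 8.84, 9.03, 9.11 and 9.32 in WT AB hearts. The CXCR5-/- arrays read 9.60, 10.01 and 9.97 after Sham and 9.18, 8.77, 9.08 and 9.04 after AB. The groups did not overlap, and Hk2 fell by 0.71 in WT (SE 0.14, adjusted p = 0.00354) and by 0.84 in CXCR5-/- mice (SE 0.14, adjusted p = 0.000554). Hk1, the isoform found in most tissues, was not called at log2 differences of 0.16 (SE 0.14) and 0.19 (SE 0.14). The identity of its probe set 10414661 is in doubt, because all 20 probe sets numbered next to it name genes of chromosome 14 whereas Hk1 lies on chromosome 10. The other Hk1 probe set, 10369541, whose neighbours name genes of chromosome 10, differed by -0.03 (SE 0.12) and 0.11 (SE 0.12) and was not called either.

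At phosphofructokinase, which sets the pace of glycolysis, the platelet-type isoform rose while the muscle and liver-type isoforms fell. Pfkp, the platelet type, read 8.38, 8.36 and 8.35 in WT Sham and 9.14, 9.33, 9.16 and 9.21 in WT AB hearts. Its CXCR5-/- values were 8.29, 8.47 and 8.36 after Sham and 9.72, 9.55, 9.55 and 9.38 after AB. This was the largest increase among the 33 genes, and the lowest AB array of each genotype stood clear of its highest Sham array. Pfkp rose by 0.85 in WT (SE 0.09, 1.80-fold, adjusted p = 1.71e-05) and by 1.18 in CXCR5-/- mice (SE 0.09, 2.26-fold, adjusted p = 3.41e-07). Pfkm, the muscle type, read 11.43, 11.69 and 11.75 in WT Sham and 10.70, 10.94, 11.13 and 11.29 in WT AB hearts, and 11.49, 11.70 and 11.63 against 10.93, 10.66, 11.09 and 11.19 in CXCR5-/- hearts. Pfkm fell by 0.61 (SE 0.14, adjusted p = 0.0102) and by 0.64 (SE 0.14, adjusted p = 0.00482), without overlap of arrays. Pfkl, the liver type, fell by 0.34 in WT (SE 0.10, adjusted p = 0.0474) and by 0.38 in CXCR5-/- mice (SE 0.10, adjusted p = 0.0209), again without overlap. Pfkfb2, the cardiac bifunctional enzyme that sets the level of an activator of phosphofructokinase, differed by -0.16 (SE 0.15) and -0.41 (SE 0.15) and was not called (adjusted p = 0.607 and 0.0842).

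Of the enzymes below phosphofructokinase, 8 of 10 were measured, and Eno3 was called in both genotypes. Eno3, the muscle enolase, read 11.72, 11.51 and 11.67 in WT Sham and 11.04, 11.14, 11.31 and 11.10 in WT AB hearts. In CXCR5-/- hearts it read 11.64, 11.56 and 11.59 after Sham and 11.12, 11.00, 10.98 and 11.10 after AB. No AB array reached the Sham range, and Eno3 fell by 0.49 (SE 0.09, adjusted p = 0.00193) and by 0.55 (SE 0.09, adjusted p = 0.000427). Aldoa and Aldoc (aldolases), Tpi1 (triosephosphate isomerase), Pgk1 (phosphoglycerate kinase) and Pgam2 (the muscle phosphoglycerate mutase) differed by between -0.08 (Aldoa) and 0.18 (Aldoc) in WT and between -0.03 (Aldoa) and 0.18 (Pgk1) in CXCR5-/- hearts, and none was called. Pkm, the pyruvate kinase of muscle, differed by -0.33 in WT and -0.32 in CXCR5-/- mice (SE 0.11, adjusted p = 0.0772 and 0.0641). Its other probe set, 10528480, differed by -0.21 and -0.13 (SE 0.11) and was not called. For that set, 19 of the 20 probe sets numbered next to it name genes of chromosome 5, whereas Pkm lies on chromosome 9. Pgam1, the phosphoglycerate mutase of other tissues, rose by 0.52 in WT (SE 0.14, adjusted p = 0.0265) and differed by 0.24 in CXCR5-/- mice (SE 0.14, adjusted p = 0.322). The single probe set of Pgam1 is also in doubt, since 19 of the 20 probe sets numbered next to it name genes of chromosome 7 whereas Pgam1 lies on chromosome 19. Among the 11 probe sets shared between Gapdh and its copies, which cannot be given to 1 gene, log2 differences ran from -0.47 to 0.37 in WT and from -0.29 to 0.62 in CXCR5-/- hearts, and 0 and 1 of them passed when every probe set was tested on its own.

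**Figure D2:**
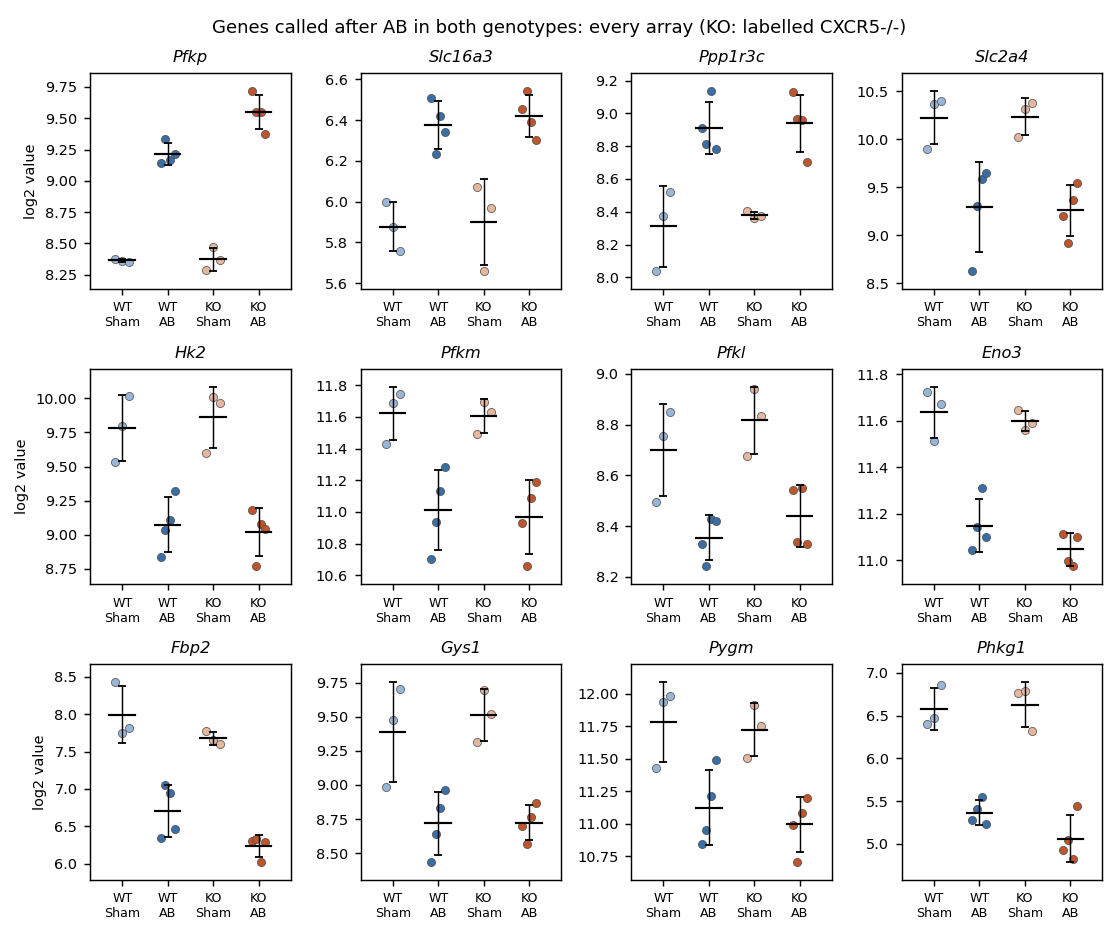
Log2 values of the 12 genes called after AB in both genotypes, with 1 point per array, the group mean as a horizontal line and error bars of 1 SD (n = 3 Sham and 4 AB arrays per genotype, KO standing for labelled CXCR5-/-). Each panel has its own axis, which does not start at 0. AB arrays lie apart from the Sham arrays of their genotype in every panel but that of Pygm, where the WT groups overlap.

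Lactate handling moved in opposite directions at the 2 monocarboxylate transporters. Slc16a3, the gene of the lactate exporter MCT4, read 6.00, 5.87 and 5.76 in WT Sham and 6.51, 6.23, 6.42 and 6.34 in WT AB hearts, and 6.07, 5.66 and 5.97 against 6.45, 6.54, 6.39 and 6.30 in CXCR5-/- hearts. Slc16a3 rose by 0.50 in WT (SE 0.11, adjusted p = 0.0065) and by 0.52 in CXCR5-/- mice (SE 0.11, adjusted p = 0.00307), with no overlap between AB and Sham. Slc16a1, the gene of MCT1, which carries lactate in either direction, fell by 0.34 in CXCR5-/- mice (SE 0.10, adjusted p = 0.0329), where Sham arrays lay at 9.96 to 10.17 and AB arrays at 9.70 to 9.80. In WT hearts its difference was -0.23 (SE 0.10, adjusted p = 0.198) with overlapping arrays. Ldhb, the heart-type subunit of lactate dehydrogenase, read 11.16, 10.80 and 10.72 after Sham and 10.65, 10.16, 10.12 and 10.26 after AB in CXCR5-/- hearts and fell by 0.60 there (SE 0.13, adjusted p = 0.0036). In WT it differed by -0.39 (SE 0.13, adjusted p = 0.063), with WT Sham at 10.84 to 10.93 and WT AB at 10.36 to 10.58. The other Ldhb probe set, 10462035, fell about equally, by 0.44 in WT and 0.45 in CXCR5-/- hearts (log2 differences -0.44 and -0.45, SE 0.12). With every probe set tested on its own in limma, its adjusted p was 0.0605 and 0.0408. For that set, 17 of the 20 probe sets numbered next to it name genes of chromosome 19, whereas Ldhb lies on chromosome 6. Ldha, the muscle-type subunit, was not called at -0.25 and -0.04 (SE 0.14), and its AB arrays spread from 10.90 to 11.52 in WT around Sham arrays that stood at 11.45 and 11.46.

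At pyruvate oxidation, 3 members were measured, and 1 of them was called in each genotype, Pdha1 in WT and Pdk2 in CXCR5-/- hearts. Pdha1, a catalytic subunit of pyruvate dehydrogenase, read 11.56, 11.84 and 11.80 in WT Sham and 10.89, 11.48, 11.22 and 11.52 in WT AB hearts and fell by 0.46 (SE 0.13, adjusted p = 0.0325). In CXCR5-/- hearts Sham arrays lay at 11.71 to 11.81 and AB arrays at 11.31 to 11.49, and the difference of -0.38 (SE 0.13) stayed above the threshold (adjusted p = 0.0566). Pdk2, a kinase that switches the complex off, fell by 0.50 in CXCR5-/- mice (SE 0.14, adjusted p = 0.0228), from 10.92 to 10.99 on the Sham arrays to 10.23 to 10.81 on the AB arrays. Its WT difference was -0.39 (SE 0.14, adjusted p = 0.0998). Pdk1, another such kinase, was not called at -0.18 and -0.17 (SE 0.09). A kinase of the same family that is no member, Pdk3, rose with AB by 0.47 (adjusted p = 0.0177) and by 0.38 (adjusted p = 0.0374). Pdk4, also of this family and no member, differed by 0.01 and -0.39 (SE 0.25) and was not called.

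Fbp2, the muscle fructose bisphosphatase, which runs against phosphofructokinase, had the largest decrease in WT with all arrays, but not without the 3 Sham arrays of high Myl7 (-1.07, against -1.30 for Phkg1). It read 8.43, 7.75 and 7.81 in WT Sham and 6.35, 7.06, 6.95 and 6.46 in WT AB hearts. The CXCR5-/- arrays read 7.77, 7.66 and 7.60 after Sham and 6.30, 6.33, 6.03 and 6.29 after AB. All AB arrays lay below all Sham arrays of both genotypes. Fbp2 fell by 1.29 in WT (SE 0.17, 2.45-fold lower, adjusted p = 0.000132) and by 1.44 in CXCR5-/- mice (SE 0.17, 2.71-fold lower, adjusted p = 2.69e-05). Thus the gene of the enzyme that opposes phosphofructokinase and those of its muscle and liver types were lower, beside the higher Pfkp.

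The glycogen genes split between synthesis, where genes moved in both directions, and breakdown, where 3 of the 5 members fell in each genotype and none rose. Of all genes, 4.22% were called lower in WT and 5.86% in CXCR5-/- hearts. Outside the members, the breakdown genes Phkg2 (0.18 and 0.29) and Pygl (0.13 and 0.04) were not called. Nor were Phka2 (-0.35 and -0.17) and Gaa (-0.24 and -0.205), whose differences were negative. Gys1, the muscle glycogen synthase, read 8.99, 9.48 and 9.70 in WT Sham and 8.44, 8.64, 8.83 and 8.96 in WT AB hearts, and 9.32, 9.70 and 9.52 against 8.70, 8.56, 8.77 and 8.87 in CXCR5-/- hearts. Gys1 fell by 0.67 (SE 0.15, adjusted p = 0.0095) and by 0.79 (SE 0.15, adjusted p = 0.00191). The WT groups were separated by little, because WT Sham replicate 1 lay next to the highest AB array. Ppp1r3c, a subunit that targets protein phosphatase 1 to glycogen and favours synthesis, read 8.04, 8.37 and 8.52 in WT Sham and 8.91, 8.81, 9.14 and 8.78 in WT AB hearts. Its CXCR5-/- values were 8.40, 8.36 and 8.37 after Sham and 9.13, 8.96, 8.96 and 8.70 after AB. Ppp1r3c rose by 0.60 (SE 0.12, adjusted p = 0.00435) and by 0.56 (SE 0.12, adjusted p = 0.00465), the opposite direction to the synthase. Gyg, the glycogenin on which a granule starts, rose by 0.44 in CXCR5-/- mice (SE 0.10, adjusted p = 0.00439), from 8.86 to 8.93 after Sham to 9.19 to 9.48 after AB. In WT hearts its arrays did not overlap either, at 8.90 to 9.04 and 9.08 to 9.39, with a difference of 0.25 (SE 0.10, adjusted p = 0.135). Gbe1, the branching enzyme, differed by -0.01 and 0.01 (SE 0.11).

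Phkg1, the muscle catalytic subunit of phosphorylase kinase, had the largest decrease in CXCR5-/- hearts with all arrays, but not without those Sham arrays (-1.26, against -1.36 for Fbp2). It read 6.40, 6.48 and 6.86 in WT Sham and 5.28, 5.40, 5.55 and 5.23 in WT AB hearts. In CXCR5-/- hearts it read 6.77, 6.79 and 6.33 after Sham and 4.93, 5.05, 4.83 and 5.45 after AB. No Sham array came down to the AB range. Phkg1 fell by 1.21 in WT (SE 0.15, 2.32-fold lower, adjusted p = 7.96e-05) and fell by 1.57 in CXCR5-/- mice (SE 0.15, 2.96-fold lower, adjusted p = 3.39e-06). Pygm, the muscle glycogen phosphorylase, read 11.43, 11.94 and 11.98 in WT Sham and 10.84, 10.95, 11.22 and 11.49 in WT AB hearts, and 11.50, 11.91 and 11.75 against 10.99, 10.71, 11.08 and 11.20 in CXCR5-/- hearts. It fell by 0.66 (SE 0.17, adjusted p = 0.0177) and by 0.73 (SE 0.17, adjusted p = 0.00598), although WT AB replicate 4 reached above WT Sham replicate 1. Pygb, the brain-type phosphorylase also found in heart, fell by 0.52 in WT (SE 0.14, adjusted p = 0.0275), where the groups overlapped by 1 array, and differed by -0.43 in CXCR5-/- hearts (SE 0.14, adjusted p = 0.051), where they did not overlap. Phka1, the muscle regulatory subunit of phosphorylase kinase, fell by 0.53 in CXCR5-/- mice (SE 0.15, adjusted p = 0.0224) and differed by -0.37 in WT (SE 0.15, adjusted p = 0.147), with overlapping arrays in both. Phkb, the regulatory subunit shared by the kinase complexes, was not called at -0.32 and -0.23 (SE 0.13).

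Isoforms were also compared within each array. In most pairs the log2 value of the muscle isoform was subtracted from that of the isoform of other tissues. Ldha minus Ldhb instead sets the subunit of skeletal muscle against that of the heart. Slc16a3 minus Slc16a1 sets the transporter of glycolytic tissue against the more general one. Pdk1 minus Pdk2 compares kinases of the same family, neither taken as the muscle isoform. Each difference is a quantity of which only the change between groups can be read, and no test was made. Of 12 pairs listed, 10 had values for both genes. For 4 pairs every AB array lay above every Sham array in both genotypes, and for no pair did the reverse hold. The share of other gene pairs that separate in this way was not computed. The differences are made from the same values as the single-gene results above, so they add no separate evidence. Slc2a1 minus Slc2a4 ran from -2.52 to -2.29 in WT Sham and from -1.77 to -0.92 in WT AB hearts, a change of the mean by 0.96, and it changed by 1.06 in CXCR5-/- hearts. Pfkp minus Pfkm had the largest shift, from -3.39 to -3.05 in WT Sham to -2.07 to -1.56 in WT AB hearts, a change of 1.46, and of 1.81 in CXCR5-/- hearts. Slc16a3 minus Slc16a1 changed by 0.73 and 0.86. Hk1 minus Hk2 changed by 0.86 and 1.03, and by 0.68 and 0.95 with the other Hk1 probe set, also without overlap. Of the remaining pairs, Pfkl minus Pfkm was free of overlap in WT (change 0.26) and Pygb minus Pygm in CXCR5-/- hearts (change 0.30), whereas Aldoc minus Aldoa, Pgam1 minus Pgam2, Ldha minus Ldhb and Pdk1 minus Pdk2 overlapped in both. The increase of the difference came from a lower muscle isoform for GLUT and hexokinase and from both isoforms for phosphofructokinase, as the values of each gene above show.

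**Figure D3:**
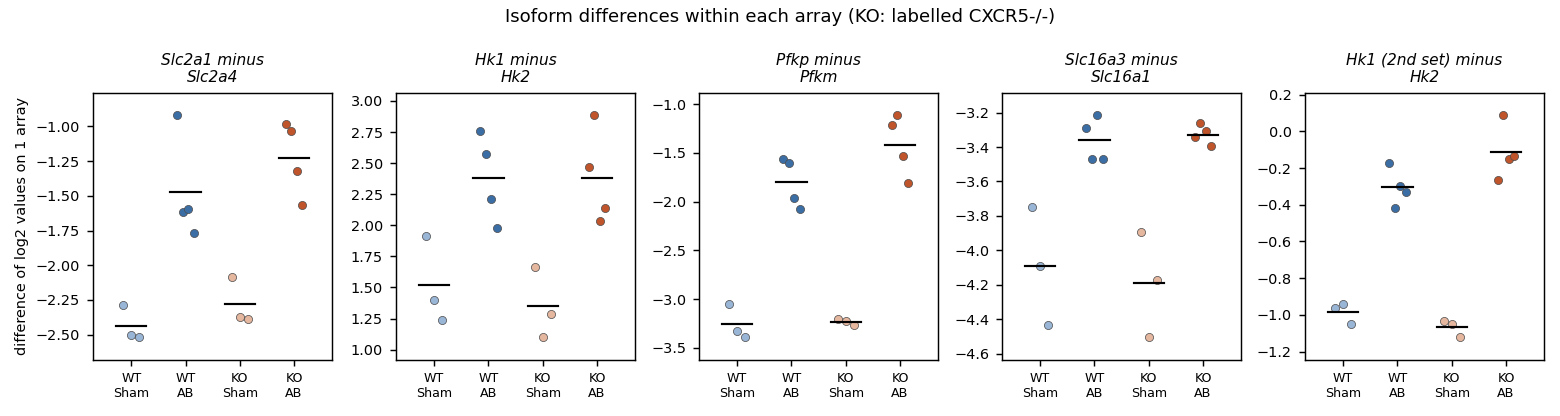
Difference of log2 values between isoforms on each array, for the 4 pairs whose AB arrays lay above all Sham arrays in both genotypes and for Hk1 read from its other probe set (2nd set). Points are arrays, lines group means, and KO stands for labelled CXCR5-/-. Levels differ between probes, so only the shift between groups is to be read, and it is upwards with AB in each panel.

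The genotypes were compared to learn whether loss of CXCR5 changed these genes. The difference between the AB responses was called for none of the 33 genes, against 0.0% of all genes, and 1 of 33 members (3.03%) had an unadjusted p under 0.05, Pfkp (limma, unadjusted p = 0.0232, adjusted p = 1), where 2.88% of all genes did, so the share was that of all genes. The response of Pfkp was 0.33 larger on the log2 scale in CXCR5-/- hearts, with a 95% interval from 0.05 to 0.60. For the other 32 genes the interval of the difference held 0, and over all 33 genes its bounds ran from -0.81 (Phkg1) to 0.64 (Ldha). The interval was -0.66 to 0.56 for Slc2a4, -0.56 to 0.29 for Hk2, -0.66 to 0.37 for Fbp2 and -0.57 to 0.42 for Pygm, so differences of that size in either direction were not excluded by the interval, and the tests do not show that the responses were alike.

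After AB, none of the 33 genes was called between hearts labelled CXCR5-/- and WT hearts, against 0.0451% of all genes, and 4 members (12.1%) had an unadjusted p under 0.05 in limma, as did 5.94% of all genes. Pfkp stood higher on every CXCR5-/- AB array than on any WT AB array, at 9.38 to 9.72 against 9.14 to 9.33 (difference 0.34, SE 0.09, unadjusted p = 0.00107, adjusted p = 0.264). Fbp2 was lower, at 6.03 to 6.33 against 6.35 to 7.06 (difference -0.46, SE 0.16, unadjusted p = 0.0101, adjusted p = 0.58). Pfkp and Fbp2 were the members whose arrays did not overlap, against 1.63% of all genes higher and 1.49% lower in CXCR5-/- hearts. Slc2a1 differed by 0.21 (SE 0.10, unadjusted p = 0.0415) and Phkg1 by -0.30 (SE 0.14, unadjusted p = 0.0472) with overlapping arrays. After Sham, none was called, against 0.0401% of all genes, and none had an unadjusted p under 0.05. Slc2a1 was the gene whose Sham arrays did not overlap, at 7.94 to 7.98 against 7.62 to 7.88 in WT, beside 3.28% of all genes higher and 3.57% lower without overlap.

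**Figure D4:**
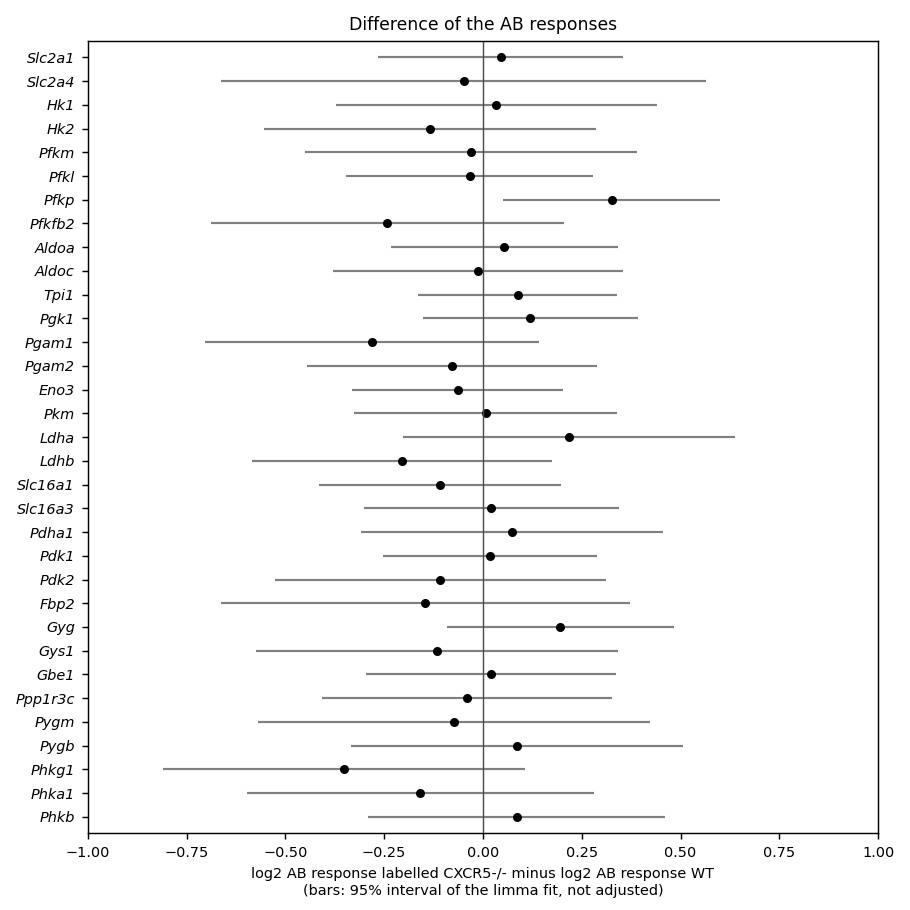
Difference between the log2 AB response of hearts labelled CXCR5-/- and that of WT hearts for each gene, with its 95% interval from limma, not adjusted for the number of genes. The interval of Pfkp, 0.05 to 0.60, is the one that leaves out 0, and its adjusted p is 1.

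The rest of the pathway was described from a list of genes that are not members. Of 51 measured genes, 2 rose and 12 fell in the WT comparison, and 2 rose and 16 fell with AB in CXCR5-/- mice, with a median log2 difference of -0.12 in each genotype. Of all genes, 5.1% were called higher and 4.22% lower in WT, and 8.28% and 5.86% in CXCR5-/- hearts. The share that rose was thus not above that of all genes, and the share that fell was above it in each genotype. Pdp2, the phosphatase that switches pyruvate dehydrogenase on, fell by 1.06 in WT (adjusted p = 9.62e-05) and by 1.18 in CXCR5-/- hearts (adjusted p = 2.05e-05). Slc16a7, the gene of the monocarboxylate transporter MCT2, fell by 0.95 and 0.74, Slc2a12, a further glucose transporter gene, fell by 0.92 and 0.83, and Ldhd, the D-lactate dehydrogenase, fell by 0.51 and 0.63. Ppp1r3a, the muscle glycogen-targeting subunit of protein phosphatase 1, fell by 0.60 and 0.76, opposite to Ppp1r3c. Dlat, the acetyltransferase subunit of pyruvate dehydrogenase, fell by 0.48 and 0.67. Of 13 genes of the pentose phosphate and hexosamine routes, which branch off glycolysis, none was called in WT, where the smallest adjusted p was 0.108 and 2 had an unadjusted p under 0.05 in limma. Of all genes, 21.1% had such an unadjusted p in WT. With AB in CXCR5-/- mice 1 was called, Gnpnat1 of hexosamine synthesis, which rose by 0.41 (adjusted p = 0.0166). A share of 1 in 13 is near the 8.28% of all genes called higher there.

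Regulators of glucose use were called in both directions. Of 29 genes, 3 rose and 6 fell in each genotype. Of all genes, 5.1% were called higher and 4.22% lower in WT, and 8.28% and 5.86% in CXCR5-/- hearts. The share that rose in CXCR5-/- hearts was thus near that of all genes. Tbc1d4, which holds GLUT4 inside the cell until insulin signals, fell by 1.12 in WT (adjusted p = 0.000331) and fell by 1.21 in CXCR5-/- hearts (adjusted p = 8.79e-05), from at least 7.99 after Sham to at most 7.46 after AB on every array. Egln1, a prolyl hydroxylase that marks HIF for breakdown, fell by 0.51 and 0.57, and Ppara, a nuclear receptor that drives fatty acid oxidation, fell by 0.61 and 0.76. Myc, a transcription factor of growth and glycolysis, rose by 0.97 (adjusted p = 0.00892) and by 1.16 (adjusted p = 0.00149), and Prkab2, a subunit of AMP-activated kinase, rose by 0.41 and 0.80. The fibroblast and macrophage markers given above rose in the same comparisons as Pfkp, Slc16a3, Ppp1r3c and Gyg, and their part in these increases was not tested.

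How far the calls rested on single arrays differed between genes. Hk2, Pfkp, Eno3, Slc16a3, Fbp2, Ppp1r3c and Phkg1 passed in both genotypes whichever 1 of the 14 arrays was left out. In WT, 8 members were called when WT Sham replicate 2 was left out and 8 when replicate 3 was, against 15 with all arrays. Calls over all genes fell in the same settings. In WT, 560 genes were called higher and 465 lower without replicate 2, and 611 and 391 without replicate 3. With all arrays these counts were 1016 and 842. The WT call of Slc2a4 ended without WT Sham replicate 3 (log2 difference -0.84, adjusted p = 0.0522), and those of Pfkm (-0.57 and -0.55, adjusted p = 0.0546 and 0.0655) and of Gys1 (highest adjusted p = 0.0829) ended without WT Sham replicate 2 or 3. Those of Pygm (highest adjusted p = 0.114) and Pgam1 (0.167) ended for 3 arrays, those of Pdha1 and Pygb (0.146 for each) for 4, and that of Pfkl (0.241) for 11 of the 14. The log2 differences behind these lost calls kept their direction, at -0.58 to -0.56 for Pygm, 0.40 to 0.51 for Pgam1, -0.43 to -0.33 for Pdha1 and -0.50 to -0.41 for Pygb. For Pfkl they lay at -0.37 to -0.27, and 6 of its 11 losses came with a CXCR5-/- array left out, where the WT difference stays at -0.34 and its spread estimate and adjustment change. For CXCR5-/- mice, the calls of Pfkl (highest adjusted p = 0.116) and Phka1 (0.156) ended for 4 arrays and those of Slc16a1 (0.136) and Pdk2 (0.0806) for 5. Calls were also gained. Among the 14 alternatives that leave out no array of the compared groups, Pdha1 passed in CXCR5-/- hearts in 5, Pkm in 5 and Pygb in 6, and Ldhb passed in WT in 8, and a call in 1 genotype alone does not show a difference between genotypes.

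The Sham arrays with high Myl7 were not alike in these genes. WT Sham replicate 1 was the lowest WT Sham array for 9 of the 11 genes that fell in WT, and CXCR5-/- Sham replicate 1 was the lowest of its group for 9 of the 13 that fell there. CXCR5-/- Sham replicate 2, the other array with high Myl7, was the highest of its group for 8 of these 13 and the lowest for 1. Without the 3 arrays, all 15 and 17 called genes kept their direction, and 14 of the 15 were still called in WT, the exception being Pgam1 (log2 difference 0.55, adjusted p = 0.0566). In CXCR5-/- hearts, where 1 Sham array was left and is assumed to vary like the other groups, 7 of the 17 were still called (Hk2, Pfkp, Eno3, Fbp2, Gys1, Phkg1 and Phka1). Slc2a4 was then at -1.12 in CXCR5-/- hearts (adjusted p = 0.063), Pfkm at -0.66 (adjusted p = 0.115), Pygm at -0.76 (adjusted p = 0.0777), Slc16a3 at 0.45 (adjusted p = 0.0966) and Ppp1r3c at 0.56 (adjusted p = 0.0911).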

How the data were processed

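RNA of the whole LV of 14 male mice was hybridised to 1 Affymetrix mouse ST 1.0 array each. The authors deposited normalised log2 values for 34760 probe sets, made with RMA per the labels, whose version and settings are not given in the sources used here. Exactly 1 gene symbol was listed for 21640 of them, several for 1321 and none for 11799. Each of 19937 genes was read from its brightest single-symbol probe set, by the mean of all arrays, and Gapdh, whose probe sets carried several symbols, got no value.

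Groups came from the labels. The 4 group means were fitted with limma 3.58.1 (R 4.3.3, lmFit and eBayes, 10 residual degrees of freedom), and p-values were adjusted by Benjamini-Hochberg over all genes, with 0.05 as threshold. Summaries and figures used Python 3.11.15, pandas 2.3.3 and matplotlib 3.10.9. The procedure was tested on simulated data. Mice with the same replicate number deviated together between the AB groups (r from 0.125 to 0.22, all 4 pairs). Between the Sham groups r was 0.026 to 0.451, and AB against Sham also had pairs under 0.1, which did not meet the requirement of r over 0.1 for every pair, so the fit with the replicate number as a block was taken as an alternative. Other alternatives were leaving out arrays, weights, other scalings, filters and probe set choices, an atrial covariate and SAM, the method of the study.

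The named genes were all 37 members and, from each other list, up to 4 genes per AB comparison with the smallest p among those called. Outside this rule, Pdk3, Pdk4, Phkg2, Pygl, Phka2, Gaa, Myl7, Bmp10 and Cxcr5 were named beside the results they bear on. The members and lists were chosen with earlier results of these data known. The number of arrays limits the precision.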

Additional observations from a re-analysis of the deposited data

Results flagged for a closer look

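Fbp2 on CXCR5-/- AB replicate 3 stood at 6.027 on the log2 scale, below the other 3 arrays of its group at 6.293 to 6.335. The gap to the nearest array took up 0.864 of the range of the group. Of 66 groups of 4 arrays examined in this way this was the one that stood apart, and chance sets apart about 1 group in 20. Without that array Fbp2 was still called lower after AB in CXCR5-/- hearts.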

How the results depend on the processing

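The number of members called after AB was 15 in WT and 17 in CXCR5-/- hearts. Leaving out 1 array at a time gave 8 to 18 in WT and 13 to 20 in CXCR5-/- hearts, with the lowest WT count, 8, without WT Sham replicate 2 and again without WT Sham replicate 3. Calls over all genes in WT were also fewest without either of these arrays. Without the 3 Sham arrays with the most atrial transcripts, 7 were called in CXCR5-/- hearts (1 higher, 6 lower), where only 1 Sham array then remained. Calls over all genes in CXCR5-/- hearts fell in that fit as well. Every other setting kept both counts within 1.5 times of those with all arrays, from 10 and 14 when each probe set was tested on its own to 21 and 23 with array weights. Over all genes, array weights gave 1775 higher and 1633 lower in WT and 2632 and 2138 in CXCR5-/- hearts. Without weights these counts were 1016 and 842, and 1650 and 1168. With the replicate block 18 and 21 were called. The block, which is a paired fit where the AB groups are compared, called none of the members between genotypes, as without it. SAM called 13 and 20. Reading Hk1 from its other probe set and adjusting for atrial markers without Nppa, both chosen after seeing the data, each gave 15 and 17. No member was called between genotypes, or for the difference of the AB responses, under any setting run. Over 1848 values of single members under alternatives, no called value changed sign, 74 lost and 50 gained a call.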
